A study of Mus musculus with 26 samples.

Results

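Transcripts of 9 genes of the Notch pathway were followed across 26 mouse skin cell lines. They were the receptor genes Notch1, Notch2 and Notch3, the ligand genes Jag1, Jag2 and Dll1, the target genes Hes1 and Hey1, and Lfng, which encodes a sugar transferase that modifies the receptors. The 9 were chosen by name out of 18193 genes with a probe set of their own, with earlier results of these data known. Where a gene had several probe sets the brightest on average was read. Each line was measured on 1 Affymetrix M430 array after growth in serum, with RNA taken in log phase, and levels are given on the log2 scale of the deposited RMA values. The immortalised keratinocyte lines were C5N and NK (n = 2), of which NK came from a p53 null mouse, and P6 was derived from a benign papilloma. The non-spindle group of squamous carcinomas held B9, B9ras, B9rassmad, E4, PDV, PDVC57, SN161, MSC7A, MSC11B, MSC12, MSCP1 and MSCP5 (n = 12). Carcinoma lines with spindle pathology, in which the tumour cells are elongated and fibroblast-like, were A5, CarB, CarC, D3, D3DP, H11 and MSN2 (n = 7). SN161, MSCP5, MSC12, MSCP1, MSC11B, MSC7A and MSCb1 came from tumours of Spretus crosses with NIH or CBA mice. Apart from MSCb1 these were all in the non-spindle group, and no line of the spindle or keratinocyte group came from such a cross. Cross background was thus unequal between the groups, and its part in the differences was not tested. The spindle flag was not stated for the carcinoma lines 2945CA and MSCb1, and label and flag conflicted for B9Smad and for 1 line labelled as a keratinocyte line. These 4 lines entered no group, and their values are given as single values.

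Notch receptors are cleaved after a ligand on a neighbouring cell pulls on them, and the freed inner part enters the nucleus and turns on target genes together with the DNA-binding protein RBPJ. Jagged and Delta-like proteins are the ligands, and Fringe proteins such as Lfng change which ligands a receptor answers to. In mouse epidermis Notch signalling promotes the commitment of basal keratinocytes to differentiation, and loss of Notch1 there favours skin tumours.

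The labelled cell types were checked against markers. The mean of 6 epithelial markers ran from 11.80 to 12.04 in the keratinocyte lines and from 4.24 to 4.60 in the spindle lines, and from 4.37 to 12.09 among the non-spindle lines. The mean of 8 mesenchymal and fibroblast markers ran from 8.38 to 12.03 in spindle lines, against 6 to 6.05 in keratinocyte lines and 5.17 to 11.37 in non-spindle lines. Endothelial and melanocyte markers averaged at most 4.92 and 4.56 in any line, below the lowest array median of 5.04, although Tek reached 6.65 in C5N and Pmel was above the array median in 25 lines. Immune markers averaged at most 5.64. Of the 4 measured, Ptprc and Itgam were below the array median in all 26 lines, Cd68 was above it in 18 and reached 10 in SN161, and Cd3e was above it in all 26, at 6.01 or less. Cdh1, the gene of E-cadherin, was below the array median in 11 lines, at 3.02 to 3.78, and at 8.49 to 11.78 in the other 15. The 11 were the 7 spindle lines, MSC12, MSC11B, MSC7A and 2945CA, so that 3 non-spindle lines had Cdh1 as low as the spindle lines. The epithelial and mesenchymal markers thus move with the groups compared, and their part in the differences reported here was not tested. The labels give no second culture of any line, and the p-values therefore rest on the spread from line to line. Some lines share a name family, as B9, B9ras and B9rassmad, PDV and PDVC57, D3 and D3DP, and CarB and CarC do. The main fit counts each of these as an independent line.

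Over the lines 5 members varied widely and 2 hardly varied. The SD over the 26 lines was 1.98 for Dll1, 1.95 for Jag2, 1.90 for Notch1, 1.80 for Jag1 and 1.37 for Lfng, and each was larger than that of at least 92.4% of the 12641 genes tested. By contrast it was 0.31 for Notch2 and 0.22 for Hey1, against a median of 0.49 over all tested genes. All 9 members passed the filter on low values, which asks for a level above the array median on at least 2 arrays. Notch3 passed on 3 arrays and Dll1 on 21.

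**Figure D1:**
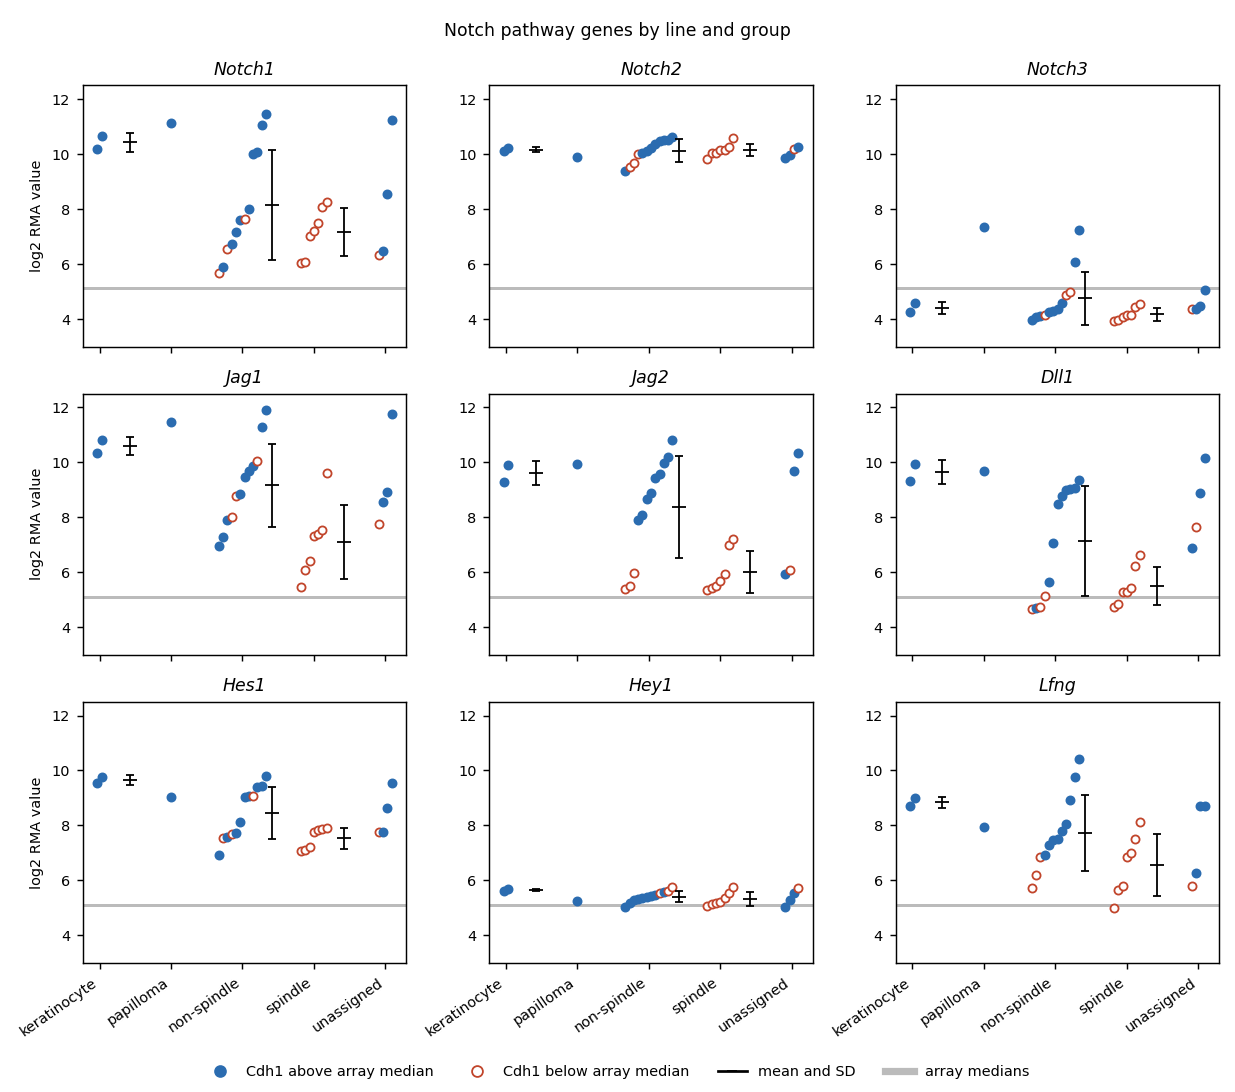
Log2 RMA values of the 9 members in each line, by group, with the group mean and SD as black bars for the keratinocyte (n = 2), non-spindle (n = 12) and spindle (n = 7) lines. Filled points are lines with Cdh1 above the array median, open points lines with Cdh1 below it, and the grey band spans the array medians. Notch2 lies at one height in all groups, while Notch1, Jag1, Jag2, Dll1 and Hes1 are high in both keratinocyte lines and spread widely in the non-spindle lines.

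Notch1, the receptor gene most studied in epidermis, was high in the non-malignant lines and ran over nearly its whole range within the non-spindle carcinoma lines. It was at 10.67 in C5N, 10.18 in NK and 11.13 in P6. The non-spindle lines ran from 5.67 in MSC12 over a median of 7.62 to 11.46 in MSCP5, and the spindle lines from 6.04 in MSN2 over 7.19 to 8.27 in CarB. All spindle values thus lay below both keratinocyte values, while the non-spindle lines overlapped both groups. The highest of the unassigned lines was the line labelled as a keratinocyte line, at 11.25, followed by B9Smad at 8.55, MSCb1 at 6.47 and 2945CA at 6.33. Spindle lines averaged 7.17 ± 0.88 (SD, n = 7), non-spindle lines 8.16 ± 2.00 (n = 12) and keratinocyte lines 10.42 ± 0.35 (n = 2). The difference of spindle from non-spindle lines was -0.99 (SE 0.74, limma adjusted p = 0.458), and that of spindle from keratinocyte lines was -3.25 (SE 1.25, adjusted p = 0.14). Neither passed the threshold of 0.05. The second Notch1 probe set had a correlation of 0.98 with the one used over the 26 lines.

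Notch2 was the receptor gene with the most even level. It was at 10.22 in C5N, 10.10 in NK and 9.89 in P6, from 9.37 to 10.64 in non-spindle lines with a median of 10.17, and from 9.83 to 10.59 in spindle lines with a median of 10.15. The lowest line, B9rassmad, and the highest, MSCP1, differed 2.41-fold, against 55.2-fold for Notch1. The 95% interval of the difference of spindle from non-spindle lines ran from -0.33 to 0.37, and that of spindle from keratinocyte lines from -0.60 to 0.58. Its other probe set averaged 4.93, was above the array median on 4 arrays and did not follow the one used (correlation 0.05), so the even level rests on 1 probe set.

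Notch3 had a signal above the array median in 3 lines only, each of them with Cdh1. These were P6 at 7.34, MSCP5 at 7.24 and B9 at 6.07. Every other line, including the line with conflicting keratinocyte labels at 5.07, lay between 3.93 and 5.07, where RMA values are close to background. The differences between the 3 groups were -0.58 for spindle against non-spindle (adjusted p = 0.363), 0.35 for non-spindle against keratinocyte (adjusted p = 0.887) and -0.23 for spindle against keratinocyte lines (adjusted p = 0.871). MSCP5 and P6 were also among the 4 lines with the most Notch1, whereas B9 was at 8.02 for Notch1.

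Among the ligands, Jag2 gave the clearest division of the lines. It was at 9.91 in C5N, 9.29 in NK and 9.95 in P6. In spindle lines it ran from 5.35 in D3DP over a median of 5.69 to 7.20 in A5, and in non-spindle lines from 5.38 in MSC11B over 8.78 to 10.81 in MSCP1. The non-spindle values fell apart in 2 ranges, with MSC11B, MSC12 and MSC7A at 5.38, 5.50 and 5.97 and the other 9 lines at 7.91 or more, above every spindle line. Spindle lines averaged 6.01 ± 0.76 (n = 7), or 5.12-fold less than the 8.37 ± 1.86 (n = 12) of the others. This difference of -2.36 (SE 0.69) had a limma adjusted p of 0.1. When the 3 lines set apart for lacking Cdh1 (MSC7A, MSC11B and MSC12) were left out, it was -3.27 with an adjusted p of 8.8e-05. Leaving out MSC12 alone gave -2.62 (adjusted p = 0.0467) and leaving out MSC11B alone -2.63 (adjusted p = 0.0321). The lines left out also had the lowest Jag2 of the non-spindle group. These values therefore describe the remaining lines and are no test of the spindle label. Without all 3 lines, 7.09% of all tested genes were called lower.

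Dll1, a Delta-like ligand that human epidermal stem cells are known to carry, followed a similar order. It was at 9.95 in C5N, 9.33 in NK and 9.67 in P6. The spindle lines ran from 4.74 in D3DP over a median of 5.29 to 6.63 in A5, and the non-spindle lines from 4.66 in MSC12 over 7.77 to 9.35 in MSCP1. Below 6 within the non-spindle group were MSC12, B9rassmad at 4.70, MSC7A at 4.73, MSC11B at 5.13 and E4 at 5.64, of which B9rassmad and E4 had Cdh1 at 9.13 and 10.58. The difference of spindle from non-spindle lines was -1.64 (SE 0.73, adjusted p = 0.214), and from keratinocyte lines -4.15 (SE 1.23, adjusted p = 0.0543), or 17.7-fold. That last difference passed in 8 of 28 alternative fits, with adjusted p from 0.0162 to 0.278 (the latter without C5N). Among the 8 were those without B9rassmad (adjusted p = 0.0472), MSCP5 (0.0494), MSC12 (0.0433), MSCP1 (0.0474), MSC11B (0.0478) or MSC7A (0.0439) alone. These are non-spindle lines, which enter the SE but not this difference. It stayed at -4.15 in each of those fits.

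Jag1, the Jagged ligand, reached its highest level in a carcinoma line. It stood at 11.91 in B9, above P6 at 11.46, the unassigned line labelled as a keratinocyte line at 11.76, NK at 10.82 and C5N at 10.35. Non-spindle lines went down to 6.95 in B9rassmad, with a median of 9.15, and spindle lines ran from 5.46 in H11 over 7.31 to 9.61 in D3. Unlike Jag2, Jag1 lay above the non-spindle median in some lines without Cdh1, at 10.04 in MSC7A and 9.61 in D3. In MSC12 it was just below that median, at 8.76. The highest Dll1 of the lines without Cdh1 was 7.64, in 2945CA. Spindle lines averaged 7.11 ± 1.35 (n = 7) and the others 9.16 ± 1.52 (n = 12), which differ by -2.05 (SE 0.64, adjusted p = 0.115). Against keratinocyte lines the spindle difference was -3.47 (SE 1.08, adjusted p = 0.067) with the probe set used, while the other Jag1 probe sets gave -2.44 (adjusted p = 0.0472) and -3.93 (adjusted p = 0.0306).

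Lfng, the fringe gene among the members, was at 8.71 in C5N, 8.99 in NK and 7.95 in P6. Its highest level was 10.41 in MSCP1, followed by 9.76 in PDV. The non-spindle lines went down to 5.73 in MSC7A with a median of 7.50, and the spindle lines ran from 4.98 in CarC over 6.86 to 8.13 in A5. The ranges of spindle and non-spindle lines overlapped over most of their length, and the difference was -1.18 (SE 0.57, adjusted p = 0.246). A5 and H11, the spindle lines with the most Lfng, at 8.13 and 7.51, also had the most Jag2 and Dll1 of the spindle lines, at 7.20 and 6.98 for Jag2 and at 6.63 and 6.23 for Dll1.

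Windows around the annotated starts, from 250 bases before to 50 bases after, were found in RefSeq for 7 of the 9 members, in 8 windows on GRCm38.p6. They were searched on both strands for TGGGAA, the core of the RBPJ site, and for CAGGTG, an E-box bound by the repressors of Cdh1; the motifs do not overlap each other. TGGGAA is held by 25.6% and CAGGTG by 20.2% of the 32851 windows of that length. Windows of 3 members are shown, 1 with each motif and Jag2 because it divided the lines most clearly, each 5′ to 3′ on the strand of its gene with the motif in capitals. Lfng (chr5:140607091-140607390, plus strand) held TGGGAA at 2 places, 1 on each strand, where the minus-strand match is printed as its complement. The upstream window of Dll1 (chr17:15376883-15377182, minus strand) held CAGGTG once, and Jag2 (chr12:112929446-112929745, minus strand) held neither in a window of 86.0% G and C.
Lfng: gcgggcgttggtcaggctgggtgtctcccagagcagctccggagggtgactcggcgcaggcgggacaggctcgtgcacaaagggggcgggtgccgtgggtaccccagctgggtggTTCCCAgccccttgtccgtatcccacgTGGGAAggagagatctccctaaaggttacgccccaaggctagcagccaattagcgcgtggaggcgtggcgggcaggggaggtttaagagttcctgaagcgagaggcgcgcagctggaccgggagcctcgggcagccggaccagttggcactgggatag
Dll1: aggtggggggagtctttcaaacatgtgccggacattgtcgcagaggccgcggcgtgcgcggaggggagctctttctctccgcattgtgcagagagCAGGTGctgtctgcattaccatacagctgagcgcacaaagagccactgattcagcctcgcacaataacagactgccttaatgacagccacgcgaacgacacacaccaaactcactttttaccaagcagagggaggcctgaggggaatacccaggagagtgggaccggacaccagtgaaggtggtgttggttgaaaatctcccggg
Jag2: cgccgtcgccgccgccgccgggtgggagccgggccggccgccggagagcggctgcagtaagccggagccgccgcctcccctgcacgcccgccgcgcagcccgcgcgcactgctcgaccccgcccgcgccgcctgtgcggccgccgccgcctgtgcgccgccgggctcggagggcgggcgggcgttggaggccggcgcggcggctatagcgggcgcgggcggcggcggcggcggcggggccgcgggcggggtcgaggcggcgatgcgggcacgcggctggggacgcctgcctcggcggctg
The windows of Notch1, Notch2, Notch3 and Jag1 and the other Dll1 window held neither motif. A match is a description of these letters and says nothing of binding.

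Hes1, which encodes a repressor induced by Notch in many tissues, was the 1 member that passed the test in any of the 3 comparisons. It was at 9.77 in C5N, 9.53 in NK and 9.03 in P6. All 7 spindle lines lay between 7.07 in A5 and 7.89 in D3, with a median of 7.78, and the non-spindle lines between 6.92 in B9rassmad and 9.80 in MSCP5, with a median of 8.57. Spindle lines did not overlap the keratinocyte lines, and they covered less than a log2 unit. Hes1 fell by 2.11 on the log2 scale (SE 0.60), or 4.32-fold, from 9.65 ± 0.16 (n = 2) in keratinocyte to 7.54 ± 0.38 (n = 7) in spindle lines, with a limma adjusted p of 0.0439. Over its 28 alternative fits the adjusted p ran from 0.024 to 0.237 and 11 fits lost the call. Those were the fit without either keratinocyte line (0.237 without C5N and 0.215 without NK), without any single spindle line (0.0509 without D3, 0.0578 without D3DP, 0.0648 without A5, 0.0577 without MSN2, 0.0653 without H11, 0.053 without CarC and 0.0688 without CarB), without the filter on low values (0.0577) and with name families as a block (0.0563). The direction was lower in spindle lines in all 28. Fits that left out only non-spindle lines kept the same spindle and keratinocyte lines and the same value of -2.11, so their direction could not change. As these are bulk RNA values, fewer cells with the transcript and less transcript per cell cannot be told apart.

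Hey1, the other target among the members, stayed close to the array median everywhere. It ran from 5.02 in SN161 to 5.76 in MSC12 over the 26 lines, and was above the array median in 24. The difference of spindle from keratinocyte lines was -0.33 (95% interval -0.72 to 0.05, adjusted p = 0.319), and no other probe set measures it here.

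**Figure D2:**
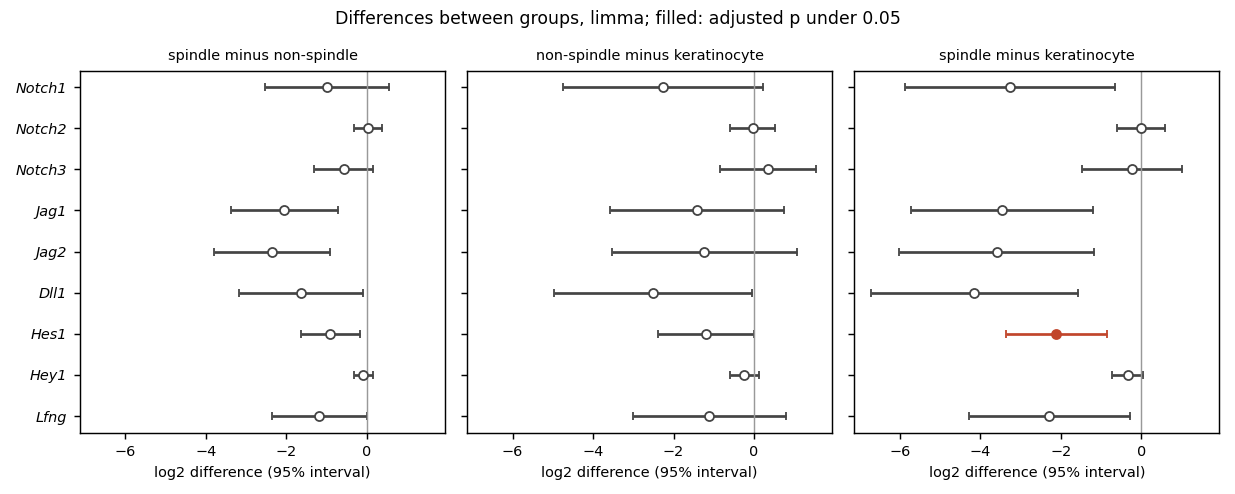
Log2 differences of the 9 members between groups, with 95% intervals from limma, in each of the 3 comparisons; 0 is no difference. The filled point is the 1 call, Hes1 in spindle minus keratinocyte lines at -2.11, and the intervals of Notch2 include 0 in all 3.

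Counted together, 0 of the 9 members were called by limma in spindle against non-spindle lines, where 0.0633% of all tested genes were called, and 4 had an unadjusted p under 0.05 (Jag1, Jag2, Dll1 and Hes1), against 20.6% of all genes. The median difference of the members was -0.99, against 0.04 over all tested genes, and 8 of 9 were lower in spindle lines, against 44.2% of all genes. In non-spindle against keratinocyte lines 0 members were called, against 2.02% of genes, and 2 had an unadjusted p under 0.05 (Dll1 and Hes1), against 12% of all genes, with a median of -1.20 against 0.02. In spindle against keratinocyte lines 1 of 9 was called as lower, against 2.95% of genes called lower, and the median was -2.29 against 0.04. There 6 members, Notch1, Jag1, Jag2, Dll1, Hes1 and Lfng, lay lower in every spindle line than in both keratinocyte lines, a pattern shown by 10.1% of all tested genes. Each pair of comparisons shares a group of lines, so their values are not independent of each other. As the members were chosen with earlier results of these data known, the shares over all genes give a scale and no test of the set. Without MSC12, MSC11B and MSC7A, 3 members were called lower in spindle than in non-spindle lines, against 7.09% of all genes, namely Jag2 (-3.27), Dll1 (-2.40, adjusted p = 0.018) and Lfng (-1.67, adjusted p = 0.0437). Those 3 lines were chosen for their low Cdh1, and all came from Spretus crosses. These calls therefore describe the remaining lines and are no test of the spindle label.

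By Cdh1, the members divided the lines to different degrees. The split rests on a measured value, so only ranges, medians and counts of lines are given, and keratinocyte and papilloma lines fall on the high side. The counts were not computed for all tested genes, so they are not shown to be particular to the members. Jag2 ran from 5.35 to 7.20 in the 11 lines with low Cdh1 (median 5.69) and from 5.95 to 10.81 in the 15 with high Cdh1 (median 9.58), and 14 of the 15 were above all 11. The exception was MSCb1, at 5.95 for Jag2 with Cdh1 at 10.02. For Dll1, 11 of the 15 were above every low-Cdh1 line, with medians of 8.99 and 5.28, and the highest low-Cdh1 line was 2945CA at 7.64. For Notch1 the count was 9 of 15, with medians of 9.99 and 7.01, for Lfng 7, for Jag1 6 and for Hes1 6, the last with medians of 9.03 and 7.75. MSC7A held the highest Hes1 of the low-Cdh1 lines, at 9.08, and the highest Jag1, at 10.04. Hey1 leaned the other way, with medians of 5.37 in high-Cdh1 and 5.53 in low-Cdh1 lines, and its ranges overlapped nearly in full.

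**Figure D3:**
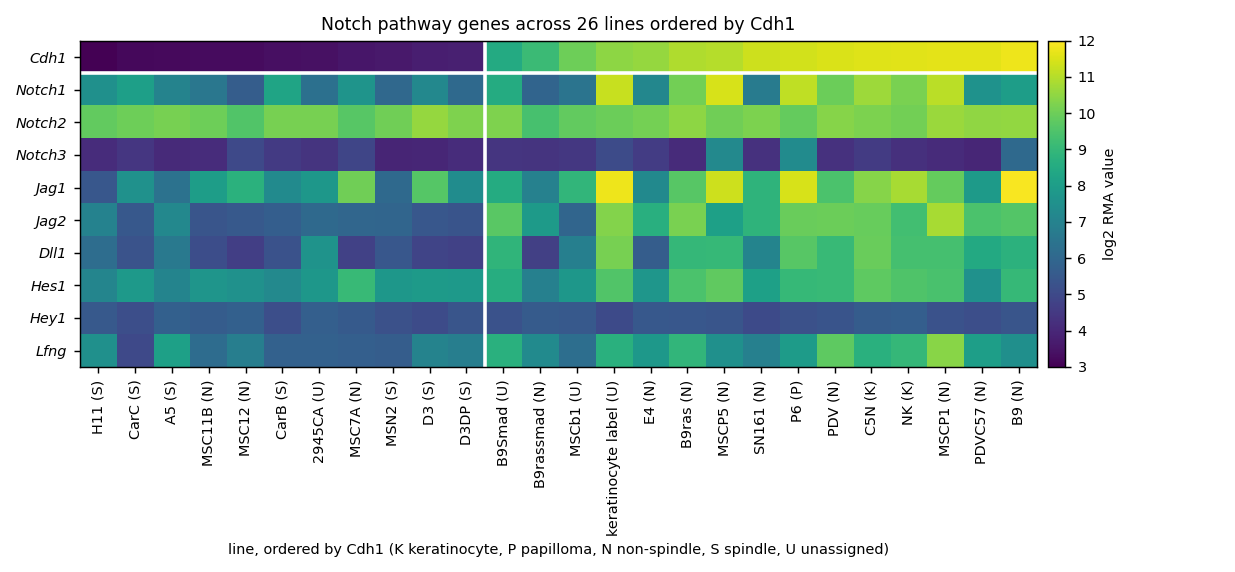
Log2 RMA values of Cdh1 and the 9 members in the 26 lines, ordered by Cdh1 from left to right, with colour from 3 (dark) to 12 (yellow); letters give each line's group, and the line marked "keratinocyte label" is the one whose label and flag conflict. The white vertical line divides the 11 lines with Cdh1 below the array median from the other 15, and Jag2 is above 7.20 in 14 of those 15.

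Within the lines with Cdh1, Notch1 varied, among the members, with Hes1 and Dll1 most closely and with Jag2 less so. Over the 15 lines the Pearson correlation with Notch1 was 0.91 for Hes1, 0.86 for Dll1, 0.74 for Jag1, 0.66 for Lfng and 0.62 for Jag2, and Dll1 and Hes1 had a correlation of 0.87. It was lower for Jag2 with Hes1, at 0.56, and for Jag1 with Jag2, at 0.37. Over the 11 lines without Cdh1, where Notch1 spans 5.67 to 8.27, the correlation of Notch1 was 0.02 with Hes1 and -0.02 with Dll1. Jag1 kept a correlation of 0.72 with Hes1 there, and 0.83 in the lines with Cdh1. These are descriptions over lines that share name families and an array platform. Related lines differed to unequal degrees. B9rassmad was the lowest of the 4 B9 lines for Notch1, Jag1, Dll1 and Hes1, at 5.90, 6.95, 4.70 and 6.92, while B9ras was at 10.08, 9.67, 8.99 and 9.44. PDVC57 lay 2.40 below PDV for Notch1 and 1.48 below it for Hes1, with Jag2 and Dll1 at 0.53 and 0.58 below. Notch1 and Hes1 did not move together in every family: B9 was below B9Smad for Notch1 (8.02 and 8.55) and above it for Hes1 (9.03 and 8.62). D3DP differed from D3 by -1.10 for Notch1 and by -0.02 for Hes1, and CarB and CarC were at 8.27 and 8.08 for Notch1 and at 7.23 and 7.83 for Hes1. Each of these lines is 1 array, so the differences have no replicate check.

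**Figure D4:**
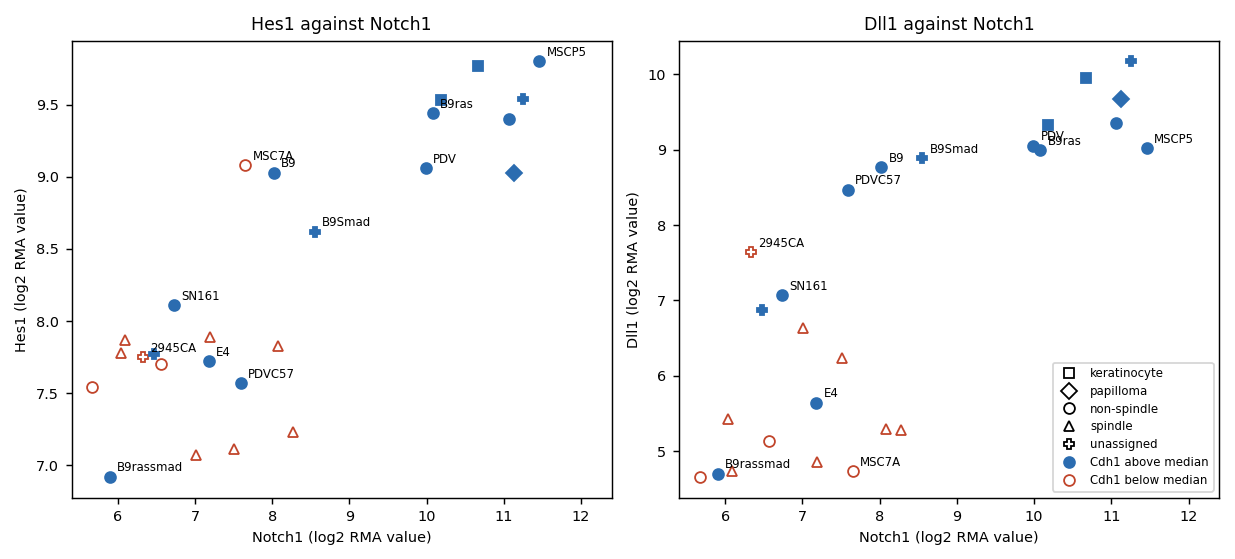
Hes1 (left) and Dll1 (right) against Notch1, all as log2 RMA values, 1 point per line, with the group given by the symbol and Cdh1 by the fill. Filled points, with Cdh1, run together in both panels, from B9rassmad at the lower left to MSCP5 and the keratinocyte lines. Open points lie at or below 8.27 for Notch1, with MSC7A at 9.08 for Hes1 and 2945CA at 7.64 for Dll1 above several filled points.

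Likeness over the 26 lines was measured as the Pearson correlation with all tested genes other than members. The genes closest to Dll1 were Krt17 (0.93), Dmkn (0.92) and Krt5 (0.92), keratins and a secreted epidermal protein. Notch1 was closest to the desmosome cadherin gene Dsc3 (0.92), Ces2g (0.91) and Spink5 (0.91), which encodes an epidermal protease inhibitor. Jag2 was closest to Cnksr1 (0.96), the cell polarity gene Patj (0.95) and the epithelial splicing regulator gene Esrp1 (0.95). Notch3 was closest to S100a9 (0.93), Gjb2 (0.89) and Pinlyp (0.87), and 3 lines make up its range. Hes1 was closest to Trim13, Sfn and Rdh12 (each 0.88), Lfng to Rfx2 (0.94), Tbl2 (0.91) and Jmjd4 (0.91), and Jag1 to Prag1, Retreg3 (each 0.87) and Plxna1 (0.86). Within the 11 lines with low Cdh1 these values were 0.32, 0.03 and 0.37 for Dll1 and 0.12, -0.06 and 0.48 for Notch1. For Jag2 they were 0.85, 0.42 and 0.11 there, and for Notch3 0.49, 0.14 and -0.09. Those of Hes1, Lfng and Jag1 were 0.52 or more. Within the 15 lines with high Cdh1, Notch1 had 0.95 with Dsc3 and 0.94 with Ces2g. For the members with a narrow range the closest genes reached lower values, 0.74 for Slc35a3 and Erlin1 and 0.73 for Txlng with Notch2, and 0.65 for Stk38 and Rab11b and 0.64 for Acad9 with Hey1.

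Of 51 other pathway genes listed, 48 had a probe set of their own and 41 were tested. In spindle against keratinocyte lines 2 were called higher, against 2.4% of all genes, and 1 lower, against 2.95%, with a median of 0.05 against 0.04 over all tested genes. In non-spindle against keratinocyte lines 1 was called higher, against 0.886% of all genes, and in spindle against non-spindle lines 0 were called by limma, against 0.0633% of all genes, with 3 at an unadjusted p under 0.05, against 20.6%. The called genes were Rbpj, Hes6 and Fbxw7.

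Rbpj, the DNA-binding partner of all Notch receptors, was the called gene of the nuclear complex. It was at 8.20 in C5N and 8.41 in NK, and between 9.51 in D3 and 11.69 in CarC in the 7 spindle lines, so these groups did not overlap. Rbpj rose by 2.45 (SE 0.64, limma adjusted p = 0.0303) in spindle against keratinocyte lines, and its other probe sets gave 2.41 and 2.61. The call was lost without C5N (2.35, adjusted p = 0.189) and without NK (2.56, adjusted p = 0.174). Against non-spindle lines, at 9.40 ± 0.92 (n = 12), the spindle lines differed by 1.36 (SE 0.38, adjusted p = 0.0949), and by 1.47 (adjusted p = 0.028) without MSC12, MSC11B and MSC7A. Hes6, a Hes family member that counteracts Hes1, rose by 1.64 (SE 0.32, adjusted p = 0.00826) in non-spindle and by 2.01 (SE 0.34, adjusted p = 0.0017) in spindle against keratinocyte lines. It was at 4.74 in C5N and 5.82 in NK but at 8.62 in the unassigned line labelled as a keratinocyte line. With all 4 unassigned lines placed by their cell type label, among them also MSCb1 with Hes6 at 9.04, the differences were 0.69 and 0.86 (adjusted p = 0.646 and 0.373), and without C5N they were 1.10 and 1.47 (adjusted p = 0.307 and 0.0801). Fbxw7, part of the ubiquitin ligase that degrades the active receptor, fell by 0.92 (SE 0.27, adjusted p = 0.0497) in spindle against keratinocyte lines, a call lost in 20 of 28 alternative fits, with -0.65 (adjusted p = 0.499) without NK and -1.19 (adjusted p = 0.0944) without C5N.

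**Figure D5:**
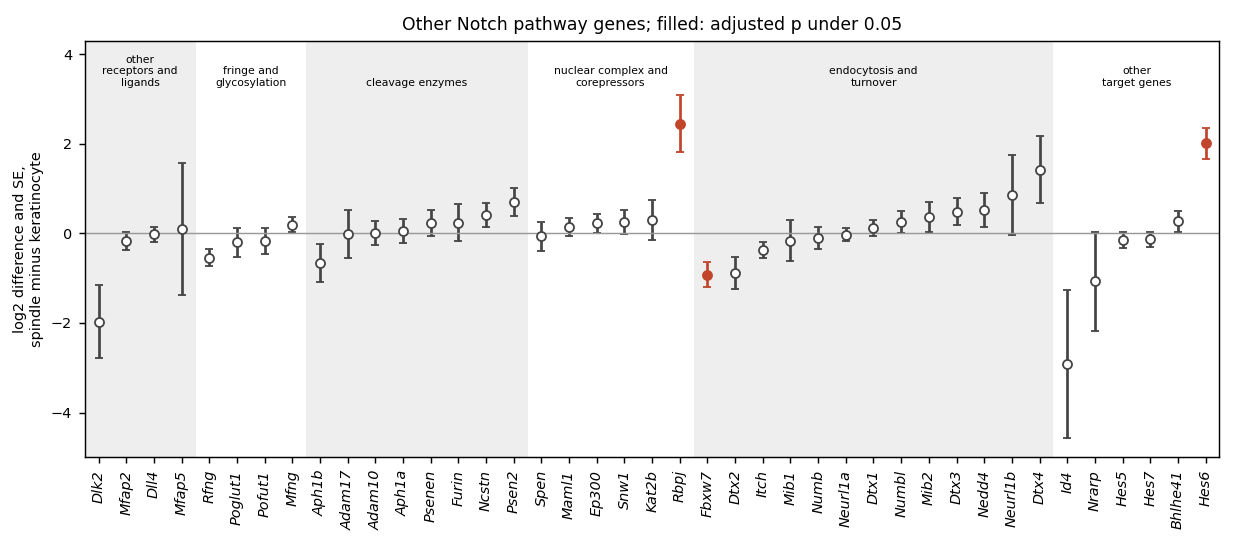
Log2 difference of spindle minus keratinocyte lines, with limma's SE, for the 41 other pathway genes tested, grouped by role. Filled points are the 3 calls, Rbpj at 2.45, Hes6 at 2.01 and Fbxw7 at -0.92; the other 38 were not called.

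By role, 0 of the tested genes were called in each of the other lists. Of all tested genes, 0.0633% were called in spindle against non-spindle and 2.02% in non-spindle against keratinocyte lines. In spindle against keratinocyte lines 2.4% were called higher and 2.95% lower. With so few genes per list, 0 calls is no result about a role. Among other receptors and ligands 4 of 8 were tested, and Notch4, Dll3 and Dner were below the array median in every line. Mfap5, a microfibril protein that binds Jagged ligands, differed by -1.51 (adjusted p = 0.329) and Dlk2, a non-canonical ligand gene, by -0.78 (adjusted p = 0.372) between spindle and non-spindle lines. Of 8 tested cleavage enzyme genes, which include the subunits of gamma-secretase, the median differences of -0.19, 0.33 and 0.13 in the 3 comparisons were small, with the presenilin gene Psen2 at 0.99 (adjusted p = 0.0937) and the nicastrin gene Ncstn at 0.58 (adjusted p = 0.35) in non-spindle against keratinocyte lines. Psen2 passed without MSCP5 (1.06, adjusted p = 0.0314). Of 4 fringe and glycosylation genes, Pofut1, which adds the first fucose, differed by -0.48 (adjusted p = 0.135) in spindle against non-spindle lines, and Rfng by -0.52 (adjusted p = 0.231) in non-spindle against keratinocyte lines. On a separate list of 7 tested keratinocyte genes tied to Notch, all 7 had a lower mean in spindle than in keratinocyte lines, against 45.9% of all genes. For Krt1 and Lor this rested on NK, at 7.25 and 9.53. C5N was at 4.06 and 6.37, against 3.83 to 4.26 and 6.47 to 6.87 in spindle lines. Krt10 and Cdkn1a also overlapped, while Trp63, Ivl and Jun did not. Of the 7 genes, 0 were called in spindle against keratinocyte lines, against 2.95% of all genes called lower. Trp63, the master regulator of the basal epidermal state, differed there by -5.80 (SE 1.98, adjusted p = 0.0948) and by -2.50 (adjusted p = 0.233) from non-spindle lines, and Ivl, the involucrin gene, by -1.87 (adjusted p = 0.228) from non-spindle lines.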

How the data were processed

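RNA of 26 mouse skin lines was measured on 1 array each. The deposited log2 values were made by the authors with RMA, which corrects background, equalises the distributions of the arrays and sums probes, per the submitters' processing notes; its version is not given in the sources used here. Quantile equalising removes any difference in total RNA between lines. Array medians ran from 5.041 to 5.151, and precision is limited by how many arrays there are. Of 45037 probe sets, 34945 had 1 gene symbol in GEO's platform annotation, 932 several and 9160 none, and 34741 were matched to a RefSeq gene of GRCm38.p6. The probe set with the highest mean stood for a gene, and 12641 of 18193 genes above the array median on at least 2 arrays were tested. Groups came from the stage label and the spindle flag.

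Differences were tested with limma 3.58.1 in R 4.3.3 (lmFit and eBayes) in 1 fit over 21 keratinocyte, non-spindle and spindle lines, with Benjamini-Hochberg adjustment over all tested genes and a threshold of 0.05. The papilloma line, alone in its stage, entered no test. Correlations are Pearson's. On simulated data with 200 changed genes among 12641, log2 changes of size 2 were recovered in 91% and of size 4 in 99% of cases in spindle against non-spindle lines, and in 79% and 99% in spindle against keratinocyte lines. The changed genes were drawn at random from all tested genes, each with its own spread. These shares do not hold for members of wide spread. Dll1, for example, was not called at -4.15 in spindle against keratinocyte lines.

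Besides the members, the text names each called gene of the other pathway lists, otherwise those with the largest differences, and the 3 genes most like each member. The members and lists were chosen with earlier results of these data known. Alternatives were another probe set or the gene's mean, no filter, median centring, trend and robust eBayes, unassigned lines placed by cell type label, name families as a random block, and leaving out lines.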

Additional observations from a re-analysis of the deposited data

How the results depend on the processing

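Members kept their direction and side of the threshold in 725 of 777 alternative values. Of the others, 11 lost a call, 21 gained one and 20, all of Notch2, changed sign. Leaving out a line of the group not compared keeps a difference as it was, so such values could not change direction. Notch2 was 0.09 and 0.11 against keratinocyte lines (non-spindle, spindle) with its other probe set, 0.03 and 0.05 as gene mean and 0.02 and 0.07 with unassigned lines placed by cell type label. Without MSC12, MSC11B and MSC7A it was -0.11 in spindle against non-spindle and 0.10 in non-spindle against keratinocyte lines. Leaving out 1 line it ran from -0.05 to 0.08 in spindle against non-spindle, from -0.09 to 0.04 in non-spindle against keratinocyte and from -0.08 to 0.05 in spindle against keratinocyte lines. Genes called in spindle against non-spindle lines, 8 as reported, were 5 with gene means, 3 without the filter, 2 with family blocks, 1954 without MSC12, MSC11B and MSC7A, and 0 by limma with unassigned lines placed by cell type label (1430 at an unadjusted p under 0.05). Members called there were 3 without those 3 lines. In spindle against keratinocyte lines, with 1 member called, the count was 2 with gene means, 3 by cell type label, 3 without those 3 lines, and 0 by limma without the filter or with family blocks (6 each at an unadjusted p under 0.05). Over all tested genes, 303 were called higher and 373 lower in that comparison as reported. The share of genes called was larger with gene means, by cell type label and without those 3 lines. It was smaller without the filter and with family blocks. Leaving out 1 line, genes called ran from 2 to 471 (without MSC11B) in spindle against non-spindle, 147 (without C5N) to 352 in non-spindle against keratinocyte and 258 (without C5N) to 765 in spindle against keratinocyte lines, and members called from 0 to 1, 0 to 0 and 0 to 3. As the count over all genes also changed between fits, a change in members called is no result about the members. The cause of these changes was not tested. The other named genes, whose alternatives were chosen after seeing the data, kept call and direction in 250 of 280 values. No paired analysis was possible because the labels carry no replicate numbers. Members near background, Notch3 and Hey1, have little room to show a lower level.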

Other observations

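Within the 15 lines with Cdh1, Trp63 fell apart at its widest gap, a split chosen after its values were seen and given without a test. E4, SN161, MSCb1 and B9rassmad had Trp63 at 4.19 to 5.96 and the other 11 lines at 9 to 11.53. Notch1 was at 5.90 to 7.18 in those 4 lines and at 7.59 to 11.46 in the 11, and Dll1 at 4.70 to 7.07 and at 8.47 to 10.17, so neither gene overlapped. The ranges of all other members overlapped. How many of all tested genes do not overlap across this split was not computed, so the pattern is not shown to be particular to Notch1 and Dll1. Hes1 overlapped, at 6.92 to 8.11 and 7.57 to 9.80, as did Jag2, at 5.95 to 8.87 and 8.10 to 10.81. Rbpj was at 9.95 to 10.71 in the 4 lines and at 7.45 to 10.10 in the 11.

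Dlk1, which encodes a non-canonical Notch ligand, stood at 11.64 in MSC12 and at 4.84 or less in each of the other 25 lines. It was named after its values were seen, and as 1 line on 1 array it was not tested.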
